A study of Tursiops truncatus with 8 samples.

Results

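HIF1a and HIF2a, the oxygen-regulated subunits of the hypoxia-inducible factors, were measured in cultured bottlenose dolphin (Tursiops truncatus) skin by 3 probes with 2 spots each, of 24418 probes and 43803 spots on the array. The probes were taken by name: HIF1a-1 and HIF1a-2 carry the name of HIF1a, and HIF2a-1 that of HIF2a, a gene whose current symbol is EPAS1. No measured value was used to choose them, though the choice was made with earlier results of these data known. Slices of epidermis and dermis, about 2 mm thick, were cut from the skin of a stranded female in Tuscany whose age the labels do not give, and were incubated for 24 h at 24 to 28 °C. RNA of each slice was labelled with Cy3 and hybridised to a one-colour Agilent array, 1 array per condition and 8 in all. On slide 1 were plain culture medium, methanol as the carrier of PFOA, and 2 cultures with PFOA, perfluorooctanoic acid, a fluorinated surfactant. Slide 2 held ethanol (the vehicle of BPA) and 3 cultures with BPA, bisphenol A, a plastics monomer. The BPA arrays are named here by the doses in their titles, 0.1, 1 and 100. For PFOA, title and description of each sample give opposite doses. PFOA titled 1 and, for the other, PFOA titled 0.1 are therefore names only, and no dose order was drawn from them. Units are left off these names: the titles give mg/ml, whereas the treatment protocol gives 0.1 and 1 µg/ml and no 100. Slices from 1 stranded animal are a narrow model, and nothing in the labels places the slices in separate animals. No p-value below therefore covers variation between animals. With 1 array per condition, the spread behind the limma p-values comes from unlike exposures within the BPA and PFOA classes. The permutation tests exchange arrays of different conditions. In both kinds of test, treatment differences are thus mixed with variation of tissue and of technique.

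A HIF alpha subunit is made continuously. In oxygenated cells prolyl hydroxylases (the EGLN enzymes) mark it, the VHL ubiquitin ligase binds the marked protein, and it is degraded; in low oxygen it escapes, pairs with ARNT and switches on genes of glycolysis, oxygen supply and cell survival. HIF1a is active in most cell types, keratinocytes among them, and HIF2a is best known from endothelium and some stromal and epithelial cells. Since this control acts on the protein, an array of transcripts reads the supply of mRNA and not the activity of the factors. In RNA from whole slices, fewer cells of a type and less RNA per cell cannot be told apart.

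The other parts of the pathway could not be read by name on this array. Of 46 partners, regulators and targets of the factors (ARNT, VHL, the EGLN enzymes, VEGFA, CA9, glycolytic enzymes and others), 0 were named among the 20 probes named for a gene, which stand for 13 genes; nearly all other probes carry contig or read names. Of 44 markers of skin cell types, 1 was named, the endothelial cadherin CDH5, so the labelled tissue could not be checked by keratins or collagens. CDH5 gave processed signals of 1.72 to 7.54, with 0 of 8 arrays well above background. The files used here hold no probe sequences, so the transcript region or isoform each HIF probe reads is not given here.

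All 6 HIF spots were well above background on all 8 arrays, with no saturated or outlier spot, but the 3 probes differed in distance from background. The processed signal, an intensity on a linear scale, ran from 69.8 to 188 for HIF1a-1 and from 64.3 to 137 for HIF1a-2. For HIF2a-1 it ran from 17.6 to 38.4. Local background around the same spots read 26 to 36. Background is already subtracted from the processed signal, which for HIF2a-1 was 0.518 to 1.25 times that local background. For HIF1a-1 it was 2.05 to 5.87 times and for HIF1a-2 2.38 to 4.03 times. The scanner's own error was 10.0% to 10.2% of the signal for HIF1a-1, 10.1% to 10.3% for HIF1a-2 and 10.6% to 15.8% for HIF2a-1. Levels of different probes are not comparable on an array, so each probe is set against itself across conditions. Over the arrays as a whole, 73.0% to 79.4% of spots were well above background. Duplicate spots well above background agreed least on PFOA titled 0.1, with a pooled SD of 0.38 log2 units, and next least at BPA 100 (0.23); the other 6 arrays had 0.14 to 0.18.

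HIF1a-1 was read at processed signals of 145 and 138 on its 2 spots on medium and 188 and 185 on methanol. It gave 121 and 123 on PFOA titled 1 and 69.8 and 107.3 on PFOA titled 0.1. On slide 2 it gave 107.4 and 105 on ethanol, 143 and 145 at BPA 0.1, 123 and 131 at BPA 1, and 92.8 and 109 at BPA 100. The spots lay within 1.18-fold of each other on every array but PFOA titled 0.1, where they were 1.54-fold apart. After division by the 75th percentile of each array, methanol was the highest array for this probe (-1.90 ± 0.02 log2 units, SD of 2 spots, which is technical) and ethanol the lowest (-2.48 ± 0.02), a span of 1.49-fold. In the order from highest to lowest, 4 of 7 neighbouring arrays had overlapping spots. The steps whose spots did not overlap were BPA 1 over medium, BPA 0.1 over PFOA titled 1, and PFOA titled 1 over ethanol.

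HIF1a-2 was read at 100.0 and 100.3 on medium and at 135 and 137 on methanol. It gave 102 and 106 on PFOA titled 1 and 109 and 108 on PFOA titled 0.1. It gave 65.5 and 76.8 on ethanol, 112 and 115 at BPA 0.1, 106 and 99.6 at BPA 1, and 80.9 and 64.3 at BPA 100. After scaling, PFOA titled 0.1 was its highest array (-1.88 ± 0.01, SD of 2 spots) and ethanol its lowest (-3.06 ± 0.16), a span of 2.27-fold, and again 4 of 7 neighbours overlapped. PFOA titled 0.1 stood 0.48 log2 units above the next array, BPA 1, and ethanol 0.40 below the next, PFOA titled 1. PFOA titled 0.1 was the highest of the 8 arrays for 20.4% of the 18651 probes tested across the array. It was in the middle of the order for HIF1a-1 and for HIF2a-1, at rank 5 of 8 in each.

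HIF2a-1, the probe with the lowest signal relative to its local background, was read at 38.4 and 33.0 on medium and 32.9 and 37.9 on methanol. It gave 24.4 and 19.6 on PFOA titled 1 and 20.5 and 17.6 on PFOA titled 0.1. It gave 20.2 and 22.3 on ethanol, 32.1 and 27.0 at BPA 0.1, 34.6 and 33.5 at BPA 1, and 25.4 and 17.6 at BPA 100. BPA 1 was its highest array after scaling (-3.95 ± 0.03, SD of 2 spots) and PFOA titled 1 its lowest (-4.91 ± 0.22), a span of 1.95-fold. Here 5 of 7 neighbours overlapped; BPA 1 lay apart from medium, the next below it, and BPA 0.1 from ethanol.

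**Figure D1:**
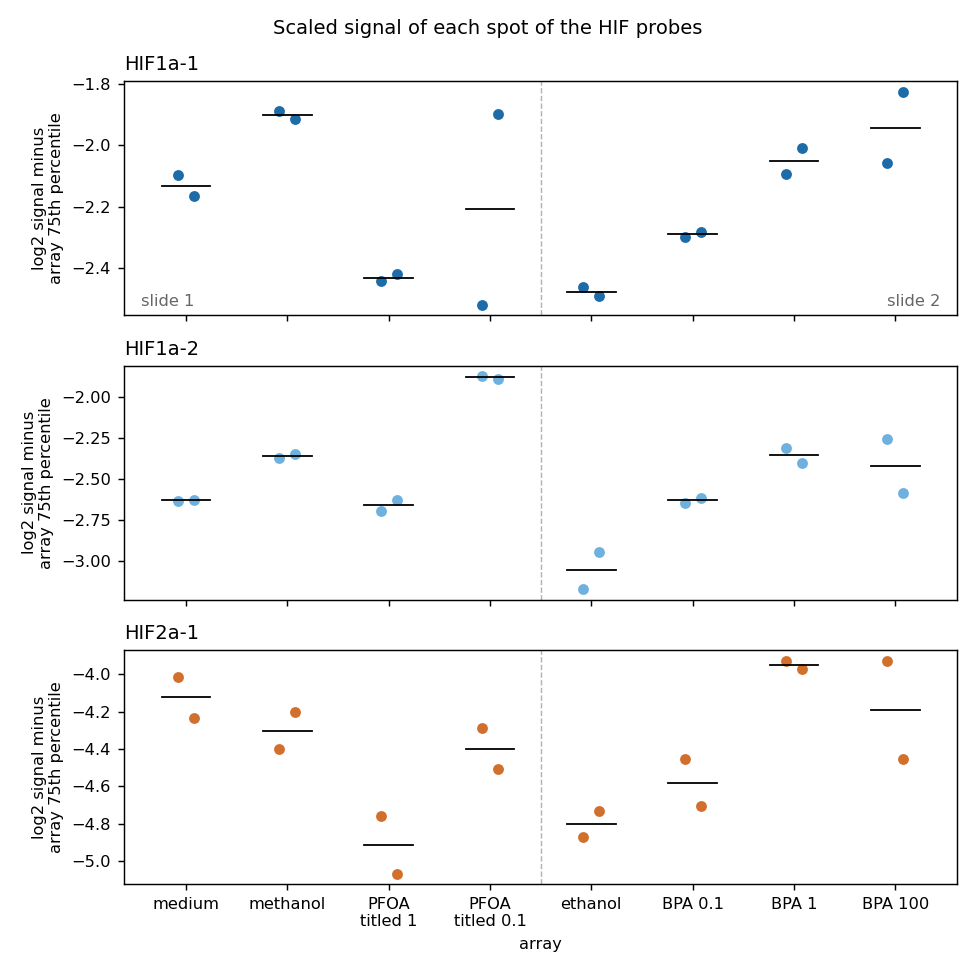
Scaled log2 signal (log2 of the processed signal minus the 75th percentile of the array) of each of the 2 spots of each HIF probe on the 8 arrays, with a line at the mean of the spots and slide 1 to the left of the dashed line. Ethanol was the lowest array for both HIF1a probes, and PFOA titled 0.1 was the highest for HIF1a-2 only, at -1.88.

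The BPA comparison asked how transcripts of the exposed slices differed from those of the ethanol slice. All 3 HIF probes read above ethanol on all 3 BPA arrays, and did so with every spot: both spots of each probe lay above both ethanol spots at each dose. For reference, 28.6% of the 18651 probes tested were above ethanol on all 3 BPA arrays. Among probes with 2 or more spots, 33.3%, 35.5% and 34.9% had every spot above ethanol at 0.1, 1 and 100 in turn, and 32.3%, 38.6% and 33.9% had every spot below it. Relative to ethanol, HIF1a-2 stood at 1.35-fold, 1.63-fold and 1.56-fold, further away than HIF1a-1 at each dose (1.14-fold, 1.34-fold and 1.45-fold). For HIF2a-1 the values were 1.17-fold, 1.80-fold and 1.52-fold. None of the 3 probes reached 2-fold at any dose, where 1.03%, 2.49% and 5.05% of all probes did.

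In limma's fit over all 8 arrays in 5 classes, none of the probes passed for BPA against ethanol. The mean difference was 0.59 ± 0.34 log2 units (SE, 3 BPA arrays against 1) for HIF1a-2, 0.56 ± 0.33 for HIF2a-1 and 0.38 ± 0.27 for HIF1a-1, each with a limma adjusted p = 0.937. Of all probes tested, 6.96% lay at least as far above ethanol as HIF2a-1, 5.98% as HIF1a-2 and 15.9% as HIF1a-1. The 95% intervals allow HIF1a-2 from 0.885-fold to 2.56-fold of ethanol, HIF2a-1 from 0.871-fold to 2.50-fold and HIF1a-1 from 0.855-fold to 1.99-fold. The fit called 1 of 18651 probes (0.00536%), which is no HIF probe.

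No order of dose held over the 3 probes. HIF1a-1 followed the order of the titled doses, with scaled means of -2.29, -2.05 and -1.94, while HIF1a-2 and HIF2a-1 were highest at BPA 1. The limma slope per 10-fold dose was 0.11 ± 0.10 log2 units (SE) for HIF1a-1 (adjusted p = 0.748), 0.09 ± 0.13 for HIF2a-1 (adjusted p = 0.837) and 0.05 ± 0.14 for HIF1a-2 (adjusted p = 0.912). The spots of BPA 1 and BPA 100 overlapped for all 3 probes, so the ranges of their spots did not separate these doses. The slope passed for 0 of 18651 probes in limma (0.0%), with 1465 at an unadjusted p under 0.05. Without the BPA 0.1 array the slope was -0.03 for HIF1a-2 and -0.12 for HIF2a-1, so their sign rests on that array. The HIF1a-1 slope was 0.05 without BPA 0.1 and 0.24 without BPA 100.

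The ethanol array was also set against medium. It lay below medium for all 3 probes and with every spot, at 0.787-fold for HIF1a-1, 0.743-fold for HIF1a-2 and 0.625-fold for HIF2a-1; 50.7% of all probes tested were below medium on ethanol, and 36.9% of those with 2 or more spots were so with every spot, while 35.2% were above it with every spot. No HIF probe differed by 2-fold, where 2.34% of all probes did. Ethanol and medium were on different slides, so vehicle and slide cannot be told apart here. The fitted difference was -0.68 ± 0.41 log2 units (SE, limma adjusted p = 0.986) for HIF2a-1, -0.43 ± 0.41 for HIF1a-2 and -0.34 ± 0.33 for HIF1a-1, with the same adjusted p. Limma passed 0 of 18651 probes for ethanol against medium (0.0%), with 619 at an unadjusted p under 0.05.

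Set against medium in place of the vehicles, the exposed arrays read the HIF probes in no single direction. At BPA 0.1, HIF1a-1 (0.897-fold of medium) and HIF2a-1 (0.729-fold) lay below medium with every spot and HIF1a-2 overlapped it (1.00-fold). Every spot was below medium for 34.3% of probes with 2 or more spots, and above for 30.3%. At BPA 1 every spot of all 3 probes lay above medium, at 1.06-fold for HIF1a-1, 1.21-fold for HIF1a-2 and 1.13-fold for HIF2a-1, as for 22.3% of such probes, against 27.7% below. At BPA 100 both HIF1a probes did so, at 1.14-fold for HIF1a-1 and 1.16-fold for HIF1a-2, while HIF2a-1 overlapped (0.953-fold), against 28.5% of such probes above and 33.7% below. On PFOA titled 1 the probes HIF1a-1 (0.813-fold) and HIF2a-1 (0.579-fold) lay below medium with every spot and HIF1a-2 overlapped it (0.978-fold), where 38.3% were below and 27.4% above. PFOA titled 0.1 split all 3 probes: every HIF1a-2 spot was above medium (1.69-fold), every HIF2a-1 spot below (0.827-fold), and HIF1a-1 overlapped (0.948-fold), where 26.2% were above and 25.0% below. With the scanner program's background-subtracted signal in place of the processed signal, that array read 1.08-fold of medium for HIF1a-2, 1.10-fold for HIF2a-1 and 0.971-fold for HIF1a-1, so this split rests on the processed signal. No HIF probe differed from medium by 2-fold on any exposed array. Shares of all probes that did were 1.32% at BPA 0.1, 1.1% at BPA 1 and 3.4% at BPA 100, and 2.09% on PFOA titled 1 and 5.19% on PFOA titled 0.1. The BPA arrays and medium were on different slides.

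Each slide held its own conditions, so slide and condition cannot be told apart, and the slide means describe the arrays only. Mean scaled values on slide 2 minus slide 1 were -0.02 for HIF1a-1, -0.24 for HIF1a-2 and 0.05 for HIF2a-1 (exact two-sided permutation tests, 4 arrays against 4, p = 0.857, 0.457 and 0.857, adjusted p = 0.857 for each). SDs within a slide were 0.22 and 0.24 for HIF1a-1, 0.36 and 0.32 for HIF1a-2, and 0.34 and 0.38 for HIF2a-1, and the smallest p of this design is 0.0286. With background-subtracted signals the differences were -0.03 for HIF1a-1, -0.05 for HIF1a-2 and -0.06 for HIF2a-1 (exact permutation tests, adjusted p = 0.914 for each).

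The PFOA comparison asked the same against methanol. On PFOA titled 1 all 3 probes read below methanol with every spot, at 0.693-fold for HIF1a-1, 0.810-fold for HIF1a-2 and 0.655-fold for HIF2a-1. Among probes with 2 or more spots, 35.6% were below methanol with every spot and 29.3% above. On PFOA titled 0.1 the probes parted: HIF1a-1 was 0.809-fold and HIF2a-1 0.935-fold of methanol, both with overlapping spots, while both HIF1a-2 spots lay above methanol (1.39-fold), as did every spot of 30.7% of probes, against 27.4% below. Differences of 2-fold from methanol, reached by no HIF probe, were seen in 1.69% of all probes on PFOA titled 1 and 7.6% on PFOA titled 0.1. HIF1a-1 and HIF2a-1 were below methanol on both PFOA arrays, and HIF1a-2 was not, against 32.7% of all probes that were.

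Averaged over both PFOA arrays, HIF1a-1 differed from methanol by -0.42 ± 0.28 log2 units (SE, limma adjusted p = 0.988), HIF2a-1 by -0.35 ± 0.35 (adjusted p = 0.988) and HIF1a-2 by 0.09 ± 0.36 (adjusted p = 0.995). The intervals run from 0.479-fold to 1.17-fold for HIF1a-1, from 0.448-fold to 1.37-fold for HIF2a-1 and from 0.605-fold to 1.87-fold for HIF1a-2. Without the PFOA titled 0.1 array these differences were -0.53, -0.61 and -0.30, so the sign of HIF1a-2 rests on that array. Without the PFOA titled 1 array they were -0.31, -0.10 and 0.48 in the same order. Limma passed 0 of 18651 probes (0.0%), with 824 at an unadjusted p under 0.05.

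Methanol against medium, both on slide 1, gave no common direction. Both HIF1a probes read above medium with every spot, at 1.17-fold for HIF1a-1 and 1.21-fold for HIF1a-2, as did 29.9% of probes with 2 or more spots, against 27.5% below; 49.9% of all probes tested had a mean above medium. HIF2a-1 was 0.884-fold of medium, with overlapping spots. A 2-fold difference, seen in 2.32% of all probes, was reached by none of the 3. The fitted differences were 0.23 ± 0.33 log2 units (SE), 0.27 ± 0.41 and -0.18 ± 0.41 in that order, each with a limma adjusted p = 1.00; limma passed 0 of 18651 probes (0.0%), with 508 at an unadjusted p under 0.05.

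The BPA effect exceeded the PFOA effect by 0.91 ± 0.48 log2 units (SE) for HIF2a-1 and by 0.80 ± 0.39 for HIF1a-1 (limma adjusted p = 0.852 for both), and by 0.50 ± 0.49 for HIF1a-2 (adjusted p = 0.906). The HIF1a-2 value was 0.11 without PFOA titled 1 and 0.89 without PFOA titled 0.1, and the HIF2a-1 value was 0.14 under normexp background correction. The difference therefore did not pass for any HIF probe, and limma passed 0 of 18651 probes (0.0%), with 1071 at an unadjusted p under 0.05. Each effect was taken against a single vehicle array. For HIF1a-1 these vehicles were the highest (methanol, -1.90) and the lowest (ethanol, -2.48) of all arrays. Methanol and ethanol read -4.30 and -4.80 for HIF2a-1, and -2.36 and -3.06 for HIF1a-2. The contrast thus holds the difference between the vehicles as well as that between the exposed arrays. HIF1a-1 and HIF2a-1 were above ethanol on all 3 BPA arrays and below methanol on both PFOA arrays, as were 13.4% of all probes tested. Their intervals still reach from 0.941-fold to 3.22-fold for HIF1a-1 and from 0.875-fold to 4.06-fold for HIF2a-1. Over the 18 fitted differences of HIF probes in the 6 comparisons, 0 had an unadjusted p under 0.05.

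**Figure D2:**
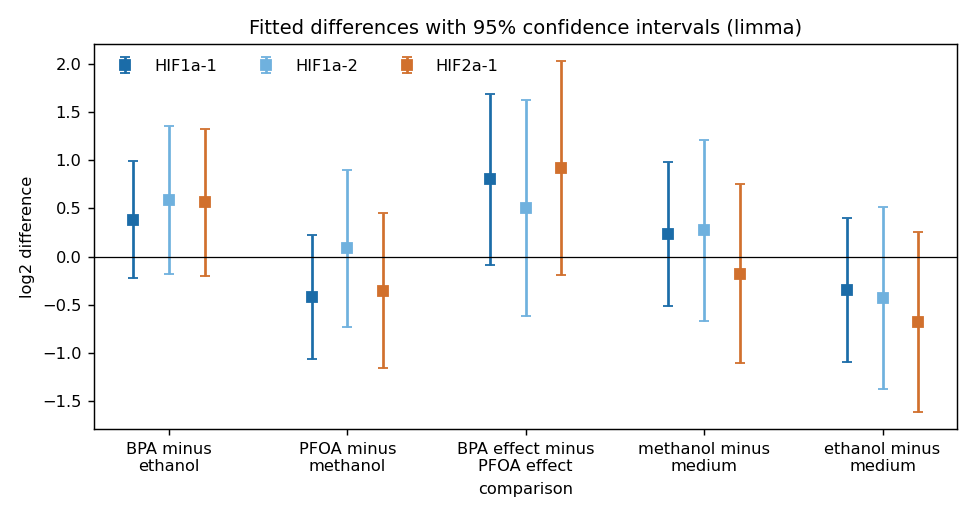
Log2 differences of the 3 HIF probes in 5 comparisons from limma's fit over 8 arrays, with 95% confidence intervals. Every interval includes 0; the BPA minus ethanol estimates lie between 0.38 and 0.59, and the ethanol minus medium estimates between -0.68 and -0.34.

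The HIF1a probes were then compared within each array, a difference that subtracting a percentile or median of the array leaves as it is. HIF1a-2 minus HIF1a-1 was -0.50 log2 units on medium, -0.46 on methanol and -0.23 on PFOA titled 1. It was -0.58 on ethanol, -0.34 at BPA 0.1, -0.30 at BPA 1 and -0.48 at BPA 100. On PFOA titled 0.1 it was 0.33, the only array with the opposite sign. A gap of 0.56 log2 units thus separated this array from the nearest of the other 7, which together spanned 0.35. Under normexp background correction the difference was -0.28 on PFOA titled 0.1, inside the range of -0.40 to -0.25 over all arrays.

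The deposited files hold a second value for each spot, which the scanner program names its background-subtracted signal, and the HIF probes were set on that scale too, a check chosen after the data were seen. The ratio of processed to background-subtracted signal was 1.73 and 1.46 at the HIF1a-2 spots of PFOA titled 0.1, against 0.932 to 1.10 at the same spots on the other 7 arrays. At the HIF1a-1 spots it was 0.941 and 0.990 on PFOA titled 0.1. The ratio varied most on this array: over spots with a processed signal above 50 its SD was 0.50 log2 units, against 0.11 to 0.22 on the other 7, and 28.5% of such spots had a ratio of at least 1.4, against 3.78% or less. The background-subtracted signals of HIF1a-2 were 63.2 and 74.1 there, in place of 109 and 108.

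On the background-subtracted scale, with the same percentile scaling, HIF1a-2 minus HIF1a-1 ran from -0.65 to -0.37 over all 8 arrays, and PFOA titled 0.1, at -0.39, lay inside that range. HIF1a-2 then lay below methanol on both PFOA arrays, at 0.933-fold (PFOA titled 0.1) and 0.771-fold (PFOA titled 1), and its mean difference under PFOA was -0.24 ± 0.33 log2 units (SE, limma adjusted p = 0.970, against 0.542 to 1.00 over all alternatives). HIF1a-1 kept its sign at -0.35 and HIF2a-1 at -0.19, though HIF2a-1 was 1.11-fold of methanol on PFOA titled 0.1. Under BPA the differences were 0.51 for HIF1a-2, 0.30 for HIF1a-1 and 0.84 for HIF2a-1. For HIF2a-1 the ratio was 1.58 at the second ethanol spot and 0.855 at the first, and BPA 1 was 2.31-fold of ethanol on this scale.

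**Figure D3:**
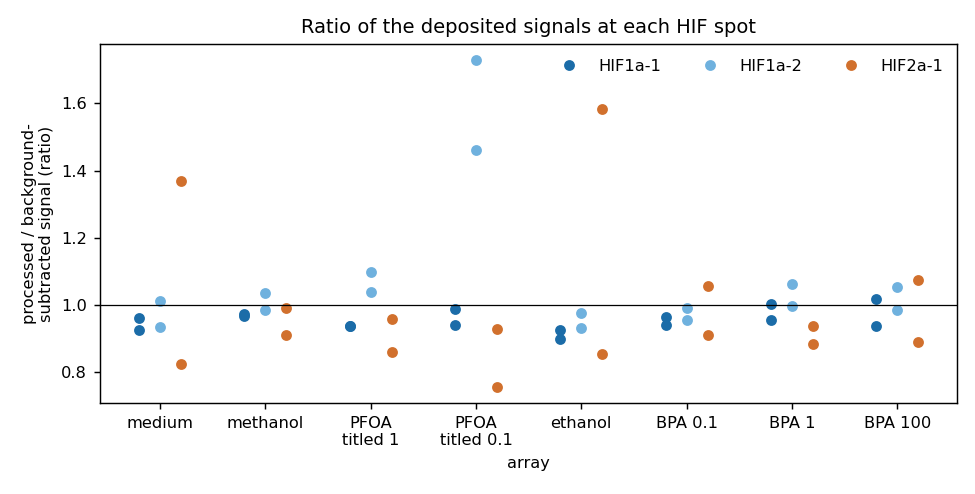
Ratio of the processed to the background-subtracted signal at each of the 6 HIF spots on the 8 arrays. Most ratios lie near 1; both HIF1a-2 spots of PFOA titled 0.1 (1.46 and 1.73) and a HIF2a-1 spot each of ethanol (1.58) and medium (1.37) stand above the rest.

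The paralogs were compared by the same within-array difference. HIF2a-1 minus HIF1a-1 ran from -2.48 on PFOA titled 1 to -1.90 at BPA 1, with a median of -2.27 and an SD of 0.20 over the 8 arrays. Only its variation is of use, since the level of one probe says nothing of another. The BPA arrays averaged -2.15 ± 0.22 (SD, n = 3) and the other arrays -2.28 ± 0.19 (SD, n = 5), a difference of 0.13 (exact two-sided permutation test, p = 0.393, adjusted p = 0.750 over 3 differences; the smallest p possible is 0.0357). With HIF1a-2 as the partner the BPA arrays differed from the others by 0.22 (exact p = 0.500, adjusted p = 0.750). The BPA arrays are 3 doses on slide 2, and the others mix conditions, all but ethanol on slide 1. BPA and slide therefore cannot be told apart in these tests. Relative to ethanol, HIF2a-1 read further above than HIF1a-1 by 0.43 log2 units at BPA 1 and by 0.03 and 0.07 at BPA 0.1 and 100. Against HIF1a-2 it stood at -0.21, 0.15 and -0.03 at BPA 0.1, 1 and 100 in turn, so the direction differed between the HIF1a probes at BPA 0.1 and 100. On the background-subtracted scale the differences from HIF1a-1 were 0.34, 0.88 and 0.42. Those from HIF1a-2 were 0.07, 0.61 and 0.32 there, so both HIF1a probes gave the same direction. Each of these values rests on the ethanol spots of HIF2a-1, which read 23.6 and 14.1 on this scale. Whether the shared direction holds with either spot alone was not tested. Relative to methanol, HIF2a-1 differed from HIF1a-1 by -0.08 on PFOA titled 1 and by 0.21 on PFOA titled 0.1. From HIF1a-2 it differed by -0.31 and -0.58 in the same order. With background-subtracted signals these values were -0.07 and 0.38 from HIF1a-1 and -0.16 and 0.26 from HIF1a-2.

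**Figure D4:**
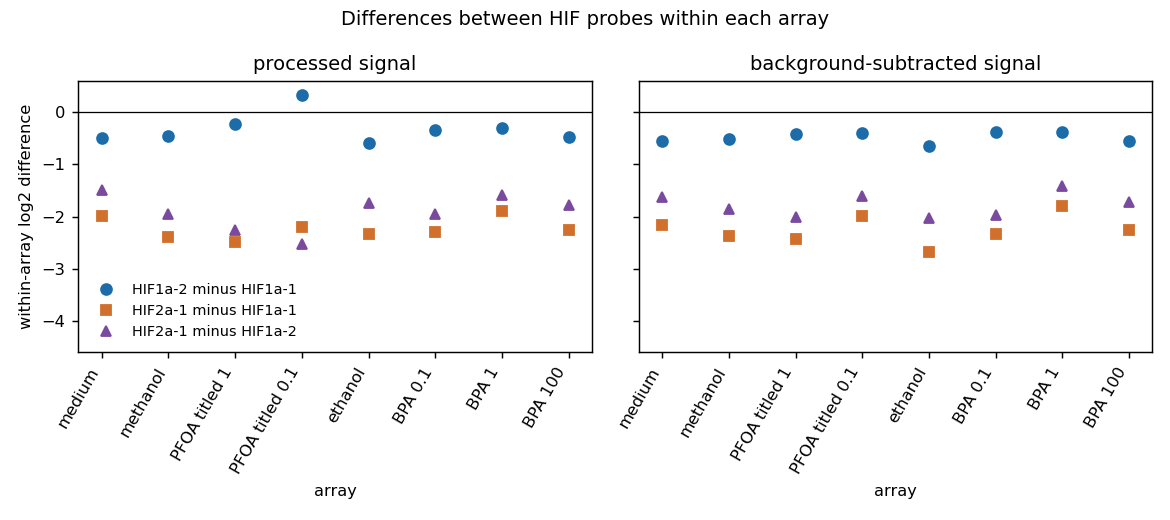
Log2 differences between HIF probes within each of the 8 arrays, from the processed signal (left) and from the background-subtracted signal (right). HIF1a-2 minus HIF1a-1 is 0.33 on PFOA titled 0.1 in the left panel and -0.39 in the right, where it lies with the other 7 arrays.

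Over the 8 arrays HIF1a-1 and HIF2a-1 varied together on the processed scale, with a Pearson r of 0.83 (exact permutation p = 0.0129, adjusted p = 0.0387 over 3 pairs) and a Spearman rho of 0.76 (exact p = 0.0368, adjusted p = 0.110). Without ethanol and methanol, the 2 arrays farthest from the median of HIF1a-1, r was 0.88 (exact p = 0.0208). Without ethanol and PFOA titled 1, the lowest arrays of both probes, a choice made after the data were seen, r was 0.53 (exact p = 0.274). The relation thus did not pass the threshold without those arrays. Leaving out the lowest arrays narrows the range, which can lower r by itself, so this check cannot show how far the relation rests on them. With median scaling r was 0.78 (exact permutation, adjusted p = 0.0737), past the threshold no longer. Between the probes of HIF1a the values were r = 0.54 (exact p = 0.160, adjusted p = 0.217) and rho = 0.64 (exact p = 0.0962, adjusted p = 0.144). Their r was 0.26 without ethanol and methanol and 0.87 without PFOA titled 0.1. HIF1a-2 and HIF2a-1 gave r = 0.49 (exact p = 0.217, adjusted p = 0.217) and rho = 0.55 (exact p = 0.171, adjusted p = 0.171), and r = 0.66 without PFOA titled 0.1 and ethanol. On the background-subtracted scale r was 0.88 between the HIF1a probes, 0.80 between HIF1a-1 and HIF2a-1 and 0.91 between HIF1a-2 and HIF2a-1 (exact permutation, adjusted p = 0.00298, 0.0192 and 0.00298); without ethanol and PFOA titled 1 these were 0.76, 0.41 and 0.64 (exact p = 0.0833, 0.419 and 0.175), and none passed the threshold. The probes share each array's scaling, RNA and slide, and 4 arrays a slide are too few for a value within slides.

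The probes most like HIF1a-1 over the 8 arrays, of 16296 well above background on all of them, were Contig-c12226-1 (r = 0.992), Contig-c5799-1 (r = 0.990) and Contig-c3020-1 (r = 0.983), assembled contigs that the files do not pair with genes. Contig-c12226-1 had the same lowest array as HIF1a-1, ethanol at -2.18, and BPA 100 at -1.32 and methanol at -1.40 as its highest. Those most like HIF2a-1 were Contig-c25439-1 (r = 0.981), Contig-c12034-1 (r = 0.975) and Contig-c10543-1 (r = 0.968). These are the highest of 16296 values over 8 arrays each, and are selected as such: 1.00% of probes had r over 0.9 with HIF1a-1 and 0.546% with HIF2a-1. In this order HIF2a-1 was at rank 478 for HIF1a-1 and the second HIF1a probe at rank 2776. On the processed scale 17.0% of the probes compared thus followed HIF1a-1 at least as closely as HIF1a-2 did. That rank rests on r = 0.54 over all 8 arrays. Between the HIF1a probes r was 0.87 without PFOA titled 0.1, and 0.88 with background-subtracted signals. HIF1a-1 was at rank 388 for HIF2a-1. Of the probes named for other genes and well above background on all 8 arrays, that of AQP5, a water channel, came nearest to HIF1a-1 (AQP5-1, r = 0.47, rank 3327). MUC1, SFTPC, AbcA3 and the second AQP5 probe had r between -0.15 and 0.14. Named probes that missed this filter were not compared.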

How the data were processed

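Gene expression was measured on 8 one-colour arrays, 1 per condition. Per the file headers, the authors extracted spots with Agilent Feature Extraction 10.7.3.1; the processed signal they deposited is a linear intensity, background-subtracted and detrended within each array and not normalized between arrays. The deposited value table equals it times 1000000, rounded and not centred; its column medians run from 6.46e+07 to 1.14e+08. The number of arrays, not a read depth, limits the precision.

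Without control and outlier spots, processed signals were put on the log2 scale, the 75th percentile of each array was subtracted, and a probe's spots were averaged. A probe was well above background on an array if all its spots were, and the 18651 probes so on at least 2 arrays were tested with limma 3.58.1 in R 4.3.3 (classes medium, methanol, PFOA, ethanol and BPA; 3 residual degrees of freedom, 2 for the dose slope; Benjamini-Hochberg, threshold 0.05, 95% intervals). A class of 1 array is assumed to vary like the others, and dose effects widen the spread. Permutation tests were exact (SciPy 1.17.1). The fit was tested on simulated data. Members, lists and tests were chosen with earlier results of these data known. Named were all HIF probes, the 3 probes most correlated with the brighter HIF1a probe and with HIF2a, and the other gene-named probes in that order. Alternatives were other scalings (median, quantile, cyclic loess), normexp (offset 50) on the median signal, since no mean signal column is held here, other filters, single spots, the authors' value table, slide as a block and fewer arrays.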

Additional observations from a re-analysis of the deposited data

How the results depend on the processing

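No HIF difference passed in limma under any alternative, and 333 of 342 alternative values kept their direction and side of the threshold (adjusted p 0.0840 or more). The other 9 changed sign. For PFOA against methanol, HIF1a-2 gave -0.033 under normexp, -0.24 with background-subtracted signals, -0.30 without PFOA titled 0.1 and -0.30 also without that array and BPA 100 together; HIF2a-1 gave 0.24 under normexp. Leaving out 1 exposed array at a time gave -0.30 to 0.48 for HIF1a-2 there and -0.61 to -0.096 for HIF2a-1. The BPA slope ran from 0.055 to 0.24 for HIF1a-1, from -0.033 to 0.27 for HIF1a-2 and from -0.12 to 0.63 for HIF2a-1 in these fits, and was -0.0054 for the second HIF1a-2 spot alone; methanol against medium was 0.033 for the second HIF2a-1 spot. The cause was not tested. The normexp offset lifts dim probes on arrays of low signal, PFOA titled 0.1 among them. The normexp values therefore cannot decide the direction under PFOA. Other filters, slide as a block and leaving out an array outside the comparison leave an estimate as it is. Such alternatives could not change its direction, so the count of 333 overstates how firmly the directions held.

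Counts of probes past the threshold moved as follows. BPA against ethanol (1 as reported) gave 0 with cyclic loess, under normexp and without the filter on low signals, and 0 to 1 with 1 exposed array left out. PFOA against methanol (0) gave 1 with quantile normalization and with background-subtracted signals, and 0 to 1 with 1 array left out. The BPA effect minus the PFOA effect (0) gave 1 under normexp and 1 with background-subtracted signals; with 1 exposed array left out, the log2 difference itself ran from 0.11 to 0.89 for HIF1a-2 and from 0.66 to 1.17 for HIF2a-1. The slope (0) gave 9 under normexp and 0 to 765 with 1 array left out, where 765 came when either PFOA array was the one left out, in fits with 1 residual degree of freedom. Methanol against medium (0) gave 2 with median scaling and 0 to 2 with 1 array left out. Ethanol against medium (0) gave 1 under normexp. Without PFOA titled 0.1 and BPA 100 together, a choice made after the data were seen, the 5 comparisons other than the slope gave 350, 301, 689, 470 and 462, on a spread from 1 pair of BPA arrays; the slope could not be fitted.

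The correlation of HIF1a-1 with HIF2a-1 was 0.78 with median scaling and 0.53 without ethanol and PFOA titled 1, and missed the threshold in both. Without those arrays r was -8.33e-05 between the HIF1a probes and -0.0633 between HIF1a-2 and HIF2a-1. The slide difference of HIF2a-1 was -0.0568 with background-subtracted signals, against 0.0523. Under normexp r was 0.96 between the HIF1a probes and 0.90 between HIF1a-2 and HIF2a-1, and with background-subtracted signals 0.88 and 0.91, all past the threshold. The normexp offset is added to every signal before scaling, which lifts dim probes on arrays of low signal. HIF2a-1 was highest under normexp on PFOA titled 0.1 (-2.40) and BPA 100 (-2.41). These arrays had the lowest 75th percentiles of processed signal, 400 and 387. It was lowest at BPA 0.1 (-3.08), which had the highest, 703.5. The normexp r values therefore cannot show how far the probes vary together. Slide is a combination of the classes, so slide as a block changed no value. No paired analysis was possible because each condition has 1 array. HIF2a-1 had the lowest processed signal of the HIF probes relative to local background.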
